A study of Mus musculus with 6 samples.

Results

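The genes described here build and control the machinery that separates chromosomes: the centromere and kinetochore, the spindle checkpoint, the chromosomal passenger complex, spindle and pole factors, and the proteins that divide the cell. They are 52 genes, taken by symbol from a fixed list that leaves out most kinesins, out of 49997 rows in the deposited count table, and all 52 passed the filter on low counts that left 21445 genes. The kinetochore is a protein assembly built on centromeric chromatin that contains the histone H3 variant CENP-A. Its inner layer stays on the centromere for much of the cell cycle, its outer layer binds spindle microtubules in mitosis, and the checkpoint holds anaphase back until all kinetochores are attached. Most of these genes are transcribed in waves that peak in G2 and mitosis, and their RNA is low in cells out of cycle, which is the usual state of long-term haematopoietic stem cells (HSCs) in the adult.

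The libraries came from bone marrow long-term HSCs of C57BL/6J mice aged 4 months, sorted by flow cytometry into cells with low and cells with high Asrij, the endosomal and mitochondrial protein encoded by Ociad1. Each of the groups, called Asrij low and Asrij high below, has 3 libraries of bulk RNA-seq, and the comparison asks how expression differs between stem cells with little and with much Asrij. The labels give the strain as the genotype and name no treatment. The deposited counts carry the name ArjKI, which the labels do not explain, so whether the mice had an altered Asrij gene is not stated. The labels state neither how Asrij was read in the sort nor whether each library had mice of its own. The p-values therefore speak only to the spread among these samples, part of which may be technical. Levels are counts-per-million values (CPM) scaled with TMM factors and given in the order of replicates 1 to 3, log2 differences (± standard error) and fold changes are Asrij high over Asrij low, and adjusted p-values come from the quasi-likelihood test of edgeR over all 21445 genes with a threshold of 0.05. Coordinates are gene spans of RefSeq on GRCm38.p6, the assembly behind mm10.

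Library totals ran from 24707012 to 46240743 counts in Asrij low and from 62732782 to 72855125 in Asrij high. Ociad1 stood at 57.9, 50.3 and 46.7 CPM in Asrij low and at 86.9, 77.6 and 76.3 CPM in Asrij high (log2 difference 0.64 ± 0.16, adjusted p = 0.0115). This passed the threshold in most alternatives but not with library totals (adjusted p = 0.133), upper quartile factors (adjusted p = 0.0834) or without Asrij high replicate 1 (adjusted p = 0.0831). The receptors of the stem cell gate were detected in all 6 libraries, and Kit (682 ± 104 against 378 ± 75.3 CPM, mean ± SD, n = 3 per group, low against high), Ly6a (9.89 ± 4.63 against 1.998 ± 0.794), Procr (34.3 ± 3.75 against 4.06 ± 2.46) and Slamf1 (32.1 ± 5.65 against 6.17 ± 4.33) were lower in Asrij high. Of 12 stem cell markers 11 were lower in Asrij high, with summed levels of 1671 to 1962 CPM in the Asrij low libraries and 480.3 to 868 in the Asrij high libraries. Genes of other marrow cells differed as well, where 21.7% of all genes tested were called higher and 17.7% lower. Of 6 granulocyte-monocyte progenitor genes 5 were higher and 1 lower in Asrij high (summed 67.5 to 238 against 1205 to 3253 CPM). Of 13 erythroid genes 7 were higher, namely Klf1, Gata1, Car1, Car2, Epor, Tfrc and Rhag. Another 5 were lower, namely Alas2 and the globin genes Hba-a1, Hba-a2, Hbb-bs and Hbb-bt. The summed erythroid level (11586 to 80434 against 5718 to 9691 CPM) is mostly globin. Mean Hba-a1 was 11421 against 1376 CPM, while mean Car1 was 75.4 against 1250 CPM. All 8 stromal genes were lower in Asrij high (235 to 955 against 22.5 to 53.8 CPM), as were 6 of 8 B and plasma cell genes and 5 of 6 macrophage genes. In smaller part this held for 2 of 3 multipotent progenitor, 2 of 5 mast cell and basophil, 2 of 4 endothelial and 2 of 7 neutrophil genes. Of 6 megakaryocyte genes and of 3 T and NK cell genes tested, 0 were called. No marker in these lists was at 0 throughout a group. The part of other cells in the differences below was not tested.

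The chromosome segregation genes were higher in Asrij high with few exceptions. Their list was chosen with earlier results of these data known, so the counts below are a description. Of the 52 genes, 50 rose and 0 fell, where 21.7% of all genes tested were called higher, 17.7% lower and 39.4% either way. The count of falls was also 0 at an unadjusted p under 0.05 and with DESeq2 and limma-voom. The median log2 fold change was 2.67, against -0.02 over all genes tested. For 51 of the 52 genes the groups did not overlap, with Asrij high on top, a separation seen in that direction for 30.2% of all genes tested. For 45 of the genes the lowest Asrij high library was more than 2-fold above the highest Asrij low library. The share of all genes tested with such a gap was not computed, so this count has no background. A log2 fold change above 3 was reached by 12 of the 52 genes and by 1.59% of all genes tested, and 43 of the 52 lay above the 95th percentile of all log2 fold changes. Together the genes took 0.116% to 0.156% of the counts of an Asrij low library and 0.501% to 0.65% of those of an Asrij high library. In bulk RNA a larger share of dividing cells and more of these transcripts per dividing cell cannot be told apart. Scaling by library totals in place of TMM factors lowered the median of all genes to -0.29 and that of the 52 genes to 2.40, again with 50 rises. That scaling turned the balance of all calls, with 3270 of 8126 calls higher in Asrij high against 4655 of 8452 with TMM factors.

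**Figure D1:**
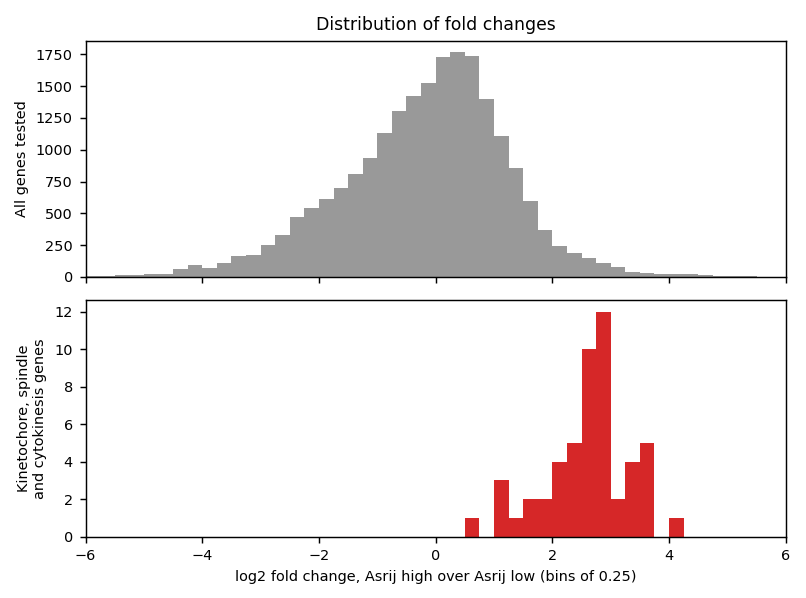
Histogram of log2 fold changes (Asrij high over Asrij low, x axis, bins of 0.25) for all 21445 genes tested (upper panel, number of genes) and for the 52 kinetochore, spindle and cytokinesis genes (lower panel, number of genes). The 52 genes lie between 0.61 and 4.03, to the right of most genes tested, whose median is -0.02.

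Many promoters of mitotic genes carry a cell cycle genes homology region (CHR), bound by the MuvB complexes that repress them in quiescence and activate them in G2, together with CCAAT boxes bound by NF-Y. RefSeq promoters, from 250 bases before to 50 bases after an annotated start (GRCm38.p6), were at hand for 44 of the 52 genes, 5 of them with more than 1 start, and not for Aurkb, Foxm1, Incenp, Nsl1, Ska1, Spc24, Tpx2 and Zwilch. The CHR was searched as TTTGAA or TTCGAA and the CCAAT box as CCAAT, both on either strand, and the matches may overlap each other. At least 1 CHR stood in the promoters of 27 of the 44 genes (61.4%), against 21.7% of all 27025 genes with a promoter and 20.2% of the protein-coding ones. CCAAT was found for 31 genes (70.5%, against 41.1% of all genes), and both motifs together for 23 (52.3%, against 8.61%). Within 50 bases on either side of the start, a window chosen after the positions were seen, a CHR stood in 54.5% of the genes and in 6.12% of all genes. These matches are letters in a window and are not measured binding sites.

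The stretches below, from 120 bases before to 30 after the start, show the promoters of some genes with large rises (Hmmr, Ttk, Bub1, Cdca8 and Nuf2). Beside them are those of the only genes that did not pass the test (Cenpw and Pttg1). Each is written 5′ to 3′ along its gene, and capitals mark CHR and CCAAT letters on either strand.
Hmmr (chr11:40733408-40733557, minus strand): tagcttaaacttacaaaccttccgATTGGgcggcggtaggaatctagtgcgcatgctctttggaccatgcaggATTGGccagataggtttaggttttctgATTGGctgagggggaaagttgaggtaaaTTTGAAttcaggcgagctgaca
Ttk (chr9:83834569-83834718, plus strand): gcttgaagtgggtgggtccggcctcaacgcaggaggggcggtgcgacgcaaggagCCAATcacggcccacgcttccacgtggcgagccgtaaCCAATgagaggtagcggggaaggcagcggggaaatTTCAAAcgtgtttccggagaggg
Bub1 (chr2:127831830-127831979, minus strand): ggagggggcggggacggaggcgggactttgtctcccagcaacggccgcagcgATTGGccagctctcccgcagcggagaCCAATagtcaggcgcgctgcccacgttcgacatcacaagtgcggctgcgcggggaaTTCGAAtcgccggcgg
Cdca8 (chr4:124936888-124937037, minus strand): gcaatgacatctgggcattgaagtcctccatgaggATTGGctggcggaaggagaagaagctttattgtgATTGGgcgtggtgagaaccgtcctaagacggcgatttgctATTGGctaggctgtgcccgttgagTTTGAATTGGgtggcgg
Nuf2 (chr1:169531435-169531584, minus strand): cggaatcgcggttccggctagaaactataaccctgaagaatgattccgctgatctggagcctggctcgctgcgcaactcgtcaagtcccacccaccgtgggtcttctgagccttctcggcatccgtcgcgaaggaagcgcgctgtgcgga
Cenpw (chr10:30200511-30200660, minus strand): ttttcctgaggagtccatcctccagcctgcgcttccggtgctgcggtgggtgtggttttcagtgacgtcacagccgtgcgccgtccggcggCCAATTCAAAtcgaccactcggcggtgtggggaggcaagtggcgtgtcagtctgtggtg
Pttg1 (chr11:43425952-43426101, minus strand): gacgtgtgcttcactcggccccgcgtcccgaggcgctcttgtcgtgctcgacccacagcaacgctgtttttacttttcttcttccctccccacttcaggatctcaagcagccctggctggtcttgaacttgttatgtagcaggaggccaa
In Hmmr, Ttk, Bub1 and Cdca8 a CHR follows the start, at positions 9, 8, 15 and 14, and CCAAT boxes lie upstream of it, the nearest ones before the start at -20, -28, -42 and -11 (positions give the leftmost base, with 1 at the start). In Cdca8 the CHR shares a base with a further CCAAT on the other strand. Cenpw also holds both motifs, sharing a base at -25, while Nuf2 and Pttg1 hold neither within these stretches or in the whole 300 bases. The listed start of Pttg1 lies 1482 bases inside the span of its gene, and those of the other printed genes lie 0 to 63 bases inside. The 300 bases searched for Pttg1 therefore do not reach the 5′ end of its span, where motifs were not looked for. The printed genes are a selection. Plk1 (log2 3.57) and Cenpi (3.44) rose more than Cdca8 (3.22) and are not printed. Plk1 has a CHR at 31 and a CCAAT at -14, and Cenpi has a CCAAT at 8 and no CHR. Neither motif was found for 9 of the 44 genes, which are Birc5, Cenpp, Dsn1, Mad2l1, Nuf2, Nusap1, Plk4, Pttg1 and Tacc3. Fold changes with and without a CHR covered much the same range. The 27 genes with a CHR had a median log2 fold change of 2.68 (1.14 to 3.70) and the 17 without one had a median of 2.54 (0.61 to 3.62).

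**Figure D2:**
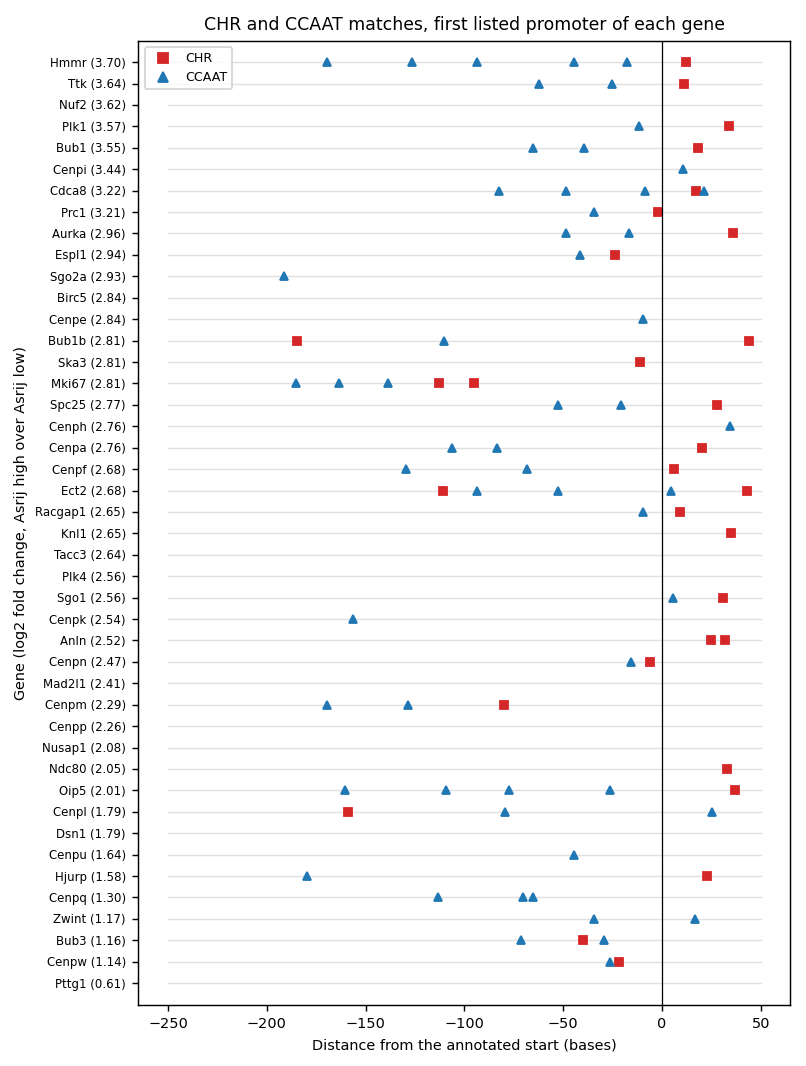
Positions of CHR (squares) and CCAAT (triangles) matches in bases from the annotated start (x axis) for the first listed promoter of 44 genes (y axis), sorted by log2 fold change, which is given in brackets. CHR matches gather around the start and CCAAT matches upstream of it, in genes with large and with small rises alike, and 9 of the 44 genes, from Pttg1 (0.61) to Nuf2 (3.62), have neither. The stretch searched for Pttg1 does not reach the 5′ end of its gene span.

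CENP-A and the factors that load it were higher in Asrij high, by 2.98 to 6.76 times. Cenpa (chromosome 5, 30666877 to 30674837), the histone variant that marks centromeres, was at 18.9, 13.9 and 18.7 CPM in Asrij low replicates 1 to 3 and at 130.4, 98.6 and 119 CPM in Asrij high (log2 difference 2.76 ± 0.20, adjusted p = 1.77e-04). The groups lay far apart, the lowest Asrij high library being 5.21 times the highest Asrij low library. Hjurp (chromosome 1, 88258856 to 88277644), the chaperone that deposits CENP-A, was at 243, 253 and 263 CPM in Asrij low and at 842, 685 and 738 CPM in Asrij high. Its rise was smaller (log2 difference 1.58 ± 0.16, adjusted p = 3.04e-04), and it was the most abundant of the 52 genes per length in Asrij low. Its span overlaps that of Mroh2a by 3434 bases, so counts in that stretch are uncertain as counts of Hjurp. Oip5, a subunit of the MIS18 complex that readies centromeres for new CENP-A, went from 1.30, 3.84 and 4.71 to 13.8, 10.9 and 14.7 CPM (log2 difference 2.01 ± 0.46, adjusted p = 0.00750), with Asrij low replicate 1 the lowest library.

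In the inner kinetochore, the constitutive network that links CENP-A chromatin to the outer layer, 9 of 10 genes rose, with a median log2 fold change of 2.28. Cenpi (chromosome X, 134308084 to 134363104), whose product helps to bring new CENP-A to centromeres, had 1.70, 1.87 and 1.62 CPM in Asrij low and 20.04, 13.98 and 22.5 CPM in Asrij high (log2 difference 3.44 ± 0.30, adjusted p = 2.17e-04). The Asrij low libraries were nearly level, and the Asrij high libraries stood at least 7.47 times above them, the widest gap among the 52 genes. Cenph and Cenpk encode partners of CENP-I in one subcomplex. Cenph rose from 3.11, 3.64 and 4.63 to 30.9, 18.8 and 27.1 CPM (log2 2.76). Cenpk rose from 1.499, 7.45 and 4.44 to 29.5, 16.3 and 31.2 CPM (log2 2.54 ± 0.53), and its Asrij low libraries differed by several times. Cenpn, whose product reads CENP-A nucleosomes, and its partner gene Cenpl rose by 2.47 and 1.79, and Cenpm by 2.29. The peripheral subunit genes Cenpp, Cenpu and Cenpq rose by 2.26, 1.64 and 1.30. The span of Cenpn overlaps that of Cmc2, and that of Cenpp holds the matrix genes Ecm2, Aspn, Omd and Ogn, so reads in shared stretches are uncertain. Cenpw (chromosome 10, 30196009 to 30200603), a small histone-fold subunit gene, did not pass the test, at 0.907, 2.42 and 1.004 CPM in Asrij low and 3.29, 3.27 and 2.97 CPM in Asrij high (log2 difference 1.14 ± 0.52, adjusted p = 0.111). Its groups did not overlap, but Asrij low replicate 2 came near the Asrij high libraries. Without that library the log2 value was 1.77 (adjusted p = 0.0197), and with limma-voom it was 1.37 (adjusted p = 0.0448). Cenpw did not pass the threshold in 12 of its 14 alternatives (adjusted p up to 0.273).

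All 10 outer kinetochore genes rose, with a median log2 fold change of 2.71. The Ndc80 complex, a rod of 4 proteins, is the main microtubule binder of the kinetochore. Nuf2 (chromosome 1, 169497934 to 169531464) stood at 7.11, 6.03 and 9.88 CPM in Asrij low and at 103, 70.2 and 110.4 CPM in Asrij high, a 12.3-fold rise (log2 difference 3.62 ± 0.27, adjusted p = 1.77e-04). Its dimer partner Ndc80 had 5.74, 7.52 and 13.3 CPM in Asrij low and 38.6, 27.8 and 43.00 CPM in Asrij high (log2 difference 2.05 ± 0.34, adjusted p = 0.00183). Asrij low replicate 3 was the highest of its group for both. Spc24 and Spc25 encode the other end of the rod, which docks on the inner layer. Spc24 went from 5.24, 7.93 and 6.33 to 86.4, 50.04 and 78.8 CPM (log2 3.47). Spc25 went from 2.81, 3.26 and 6.83 to 29.6, 23.6 and 34.5 CPM (log2 2.77). Per length the 4 genes lay between 2.71 and 4.02 RPKM (CPM per kilobase of exon) in Asrij low, a 1.48-fold range. In Asrij high they lay between 16.6 and 34.2 RPKM, a 2.06-fold range. Ranges in Asrij low and Asrij high were 4.93-fold and 3.50-fold for the passenger complex genes. They were 5.65-fold and 3.51-fold for Cenph, Cenpi, Cenpk and Cenpm, and 2.705-fold and 1.62-fold for Dsn1 and Nsl1.

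Knl1, the scaffold on which checkpoint proteins gather, rose from 24.6, 30.7 and 33.2 to 185, 151 and 219.7 CPM (log2 difference 2.65 ± 0.20, adjusted p = 1.85e-04). Zwint, which encodes a binder of KNL1, was already at 70.5, 75.7 and 58.1 CPM in Asrij low and reached 175, 118 and 166 CPM in Asrij high, a 2.25-fold difference (adjusted p = 0.00192). Of the Mis12 complex, the hub that joins the inner to the outer layer, Dsn1 rose by 1.79 and Nsl1 by 2.53. The Ska complex follows the ends of shortening microtubules. Ska1 (chromosome 18, 74195299 to 74207818) had the largest rise of the 52 genes, 16.3-fold, from 0.407, 0.970 and 1.93 to 18.5, 13.5 and 20.6 CPM (log2 difference 4.03 ± 0.53, adjusted p = 7.22e-04). In Asrij low it was also the second least abundant per length, at 0.413 RPKM, with 22 counts in its lowest library. Ska3 went from 3.31, 3.32 and 4.71 to 28.4, 23.95 and 27.1 CPM (log2 2.81), with little spread in either group.

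The corona is the outermost, fibrous part of an unattached kinetochore. Cenpe encodes its motor, a kinesin that moves chromosomes to the spindle equator, and had 13.5, 27.7 and 22.9 CPM in Asrij low and 161, 111 and 186 CPM in Asrij high (log2 difference 2.84 ± 0.30, adjusted p = 3.09e-04). Cenpf, a large coiled-coil protein gene, had 24.99, 21.8 and 51.4 CPM in Asrij low and 218, 166 and 245 CPM in Asrij high (log2 2.68), with replicate 3 above both other Asrij low libraries. Zwilch, a subunit gene of the RZZ complex that recruits dynein and MAD1, rose by 10.2-fold, from 5.98, 6.51 and 7.72 to 74.7, 51.6 and 80.3 CPM (adjusted p = 1.77e-04). For all 3 genes Asrij high replicate 2 was the lowest of its group and replicate 3 the highest.

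The spindle checkpoint genes all rose, from 1.16 to 3.64 on the log2 scale. Ttk (chromosome 9, 83834651 to 83872390), the MPS1 kinase gene that starts checkpoint signalling, was at 2.63, 5.16 and 3.86 CPM in Asrij low and 53.8, 34.3 and 56.5 CPM in Asrij high (log2 difference 3.64 ± 0.33, adjusted p = 2.18e-04). Bub1, a kinase gene of the same pathway, was at 1.59, 6.30 and 6.64 CPM in Asrij low and 62.6, 39.2 and 66.3 CPM in Asrij high (log2 difference 3.55 ± 0.51, adjusted p = 0.00127). In Asrij low replicate 1 Bub1 was well below the other libraries of the group, and the groups stayed apart. Bub1b, which encodes BUBR1 of the mitotic checkpoint complex, rose from 27.0, 37.5 and 62.9 to 338, 232 and 323 CPM (log2 2.81). Mad2l1, which encodes MAD2, the protein that inhibits the anaphase activator CDC20, rose from 12.2, 21.9 and 17.4 to 103, 67.6 and 103 CPM (log2 2.41). Bub3, a partner of BUB1 and BUBR1, was the most abundant of the 5 per length in Asrij low (15.6 RPKM) and differed least, with 61.05, 75.95 and 73.2 against 173, 136 and 160.2 CPM (2.23-fold, adjusted p = 0.00106).

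**Figure D3:**
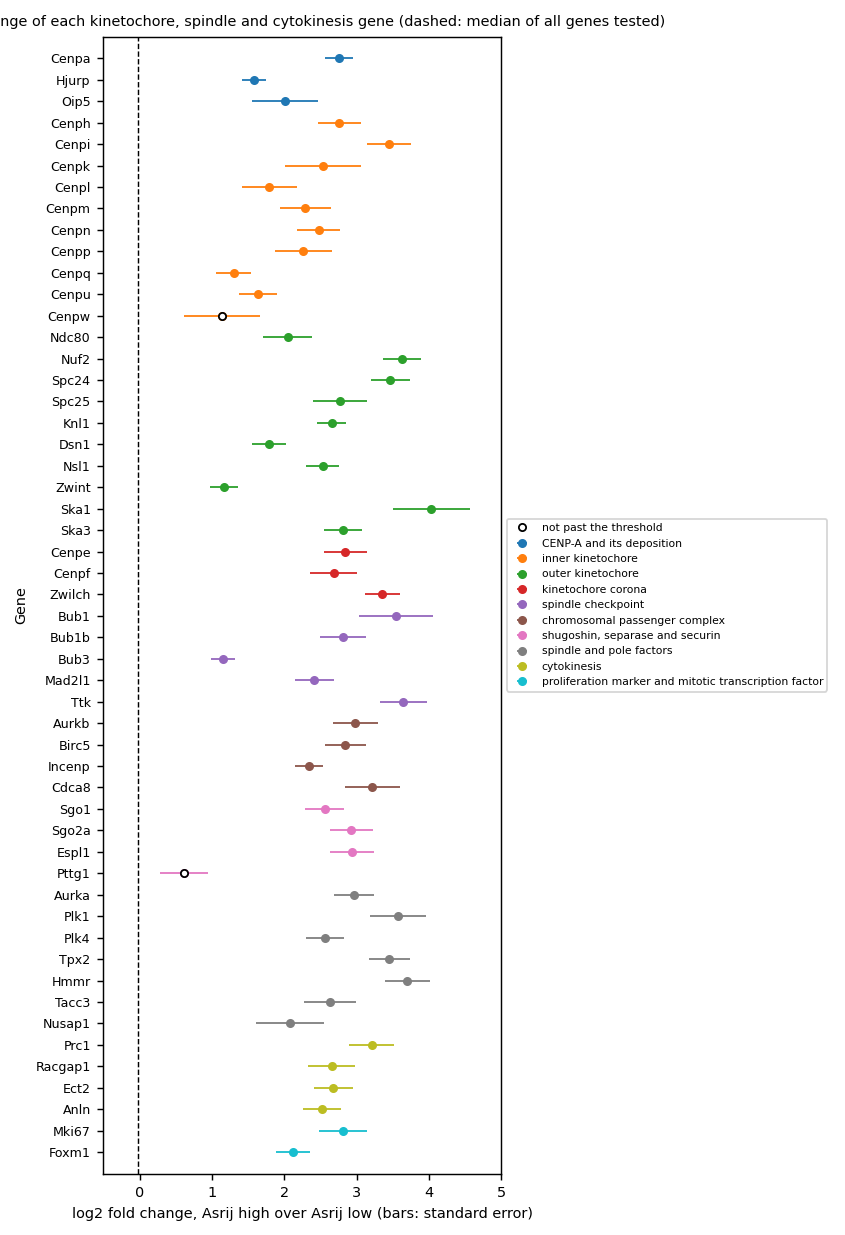
Log2 fold change of each of the 52 genes (x axis, Asrij high over Asrij low, bars are standard errors), in the order of their roles (colours), with the median of all genes tested as a dashed line. Ska1 is highest at 4.03, and Cenpw (1.14) and Pttg1 (0.61), drawn as open circles, did not pass the threshold.

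The chromosomal passenger complex, which corrects wrong attachments and later steers cell division, rose in all 4 subunit genes. Aurkb (chromosome 11, 69045624 to 69051664), its kinase, was at 10.8, 9.70 and 22.2 CPM in Asrij low and 118, 114 and 104 CPM in Asrij high (log2 difference 2.98 ± 0.31, adjusted p = 3.09e-04). Cdca8, which encodes borealin, went from 6.44, 7.62 and 17.7 to 111, 79.0 and 104 CPM (9.29-fold). Birc5, which encodes survivin, went from 10.3, 8.28 and 16.6 to 93.5, 66.8 and 91.2 CPM (7.17-fold). Asrij low replicate 3 was the highest of its group for all 4 subunits. Incenp, the scaffold, was the most abundant of them per length in both groups (16.99 and 86.2 RPKM) and had the smallest rise, from 47.6, 50.7 and 67.2 to 300.1, 235 and 304 CPM (log2 2.34).

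Among the genes that guard and cut sister chromatid cohesion, separase and the shugoshins rose and securin did not pass the test. Espl1, which encodes separase, the protease that opens cohesin rings, was at 14.2, 20.8 and 34.7 CPM in Asrij low and 184, 162 and 188 CPM in Asrij high (log2 difference 2.94 ± 0.30, adjusted p = 2.99e-04). Sgo1 and Sgo2a encode the shugoshins, which shield centromeric cohesin. Sgo1 rose from 4.59, 4.43 and 7.26 to 34.7, 28.5 and 32.8 CPM, and Sgo2a from 3.85, 2.94 and 5.64 to 32.0, 28.0 and 34.5 CPM (log2 2.56 and 2.93). Pttg1 (chromosome 11, 43420244 to 43427463), which encodes securin, the inhibitor of separase, had 7.997, 6.13 and 13.7 CPM in Asrij low and 16.2, 12.6 and 13.7 CPM in Asrij high (log2 difference 0.61 ± 0.33, adjusted p = 0.167). It was the only one of the 52 genes whose groups overlapped, through Asrij low replicate 3. Without that library its log2 fold change was 0.97 (adjusted p = 0.0345). Pttg1 did not pass the threshold in 12 of its 14 alternatives (adjusted p up to 0.482).

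All 7 spindle and pole genes rose, with a median log2 fold change of 2.96. Plk1 (chromosome 7, 122159435 to 122169884), the polo kinase gene that acts from mitotic entry to cytokinesis, was at 8.31, 7.03 and 19.5 CPM in Asrij low and 155, 112 and 146 CPM in Asrij high (log2 difference 3.57 ± 0.38, adjusted p = 3.69e-04). Aurka, the kinase gene of spindle poles, rose from 9.31, 7.03 and 13.7 to 81.9, 63.6 and 88.2 CPM (log2 difference 2.96 ± 0.28, adjusted p = 2.21e-04). Tpx2, whose product activates AURKA and nucleates microtubules, rose from 20.7, 15.7 and 29.6 to 267, 178 and 276 CPM (10.9-fold). Hmmr, a spindle-binding protein gene that carries the CHR and CCAAT letters shown above, had the largest rise of the 7, from 4.91, 4.02 and 7.68 to 75.9, 51.5 and 87.5 CPM (log2 difference 3.70 ± 0.31, adjusted p = 1.98e-04). Plk4, which starts centriole duplication, rose by 2.56 and Tacc3, which crosslinks spindle fibres, by 2.64. Nusap1, a microtubule bundler gene, varied most within Asrij low, with 10.6, 8.38 and 32.4 CPM against 78.6, 59.1 and 78.2 CPM in Asrij high (log2 difference 2.08 ± 0.48, adjusted p = 0.00924). Asrij low replicate 3 was 3.42 times the mean of the other Asrij low libraries, and it missed the threshold without Asrij high replicate 1 (adjusted p = 0.0771) or replicate 3 (adjusted p = 0.0558) and without a count filter (adjusted p = 0.0959, range over all alternatives 4.22e-05 to 0.0959). Nusap1 and Oip5 lie head to head on chromosome 2 and their spans overlap by 208 bases.

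Of the cytokinesis genes all 4 rose. Prc1 (chromosome 7, 80294445 to 80316259), which encodes the crosslinker of the central spindle, was at 15.8, 16.2 and 30.3 CPM in Asrij low and 214, 139.6 and 221 CPM in Asrij high (log2 difference 3.21 ± 0.31, adjusted p = 2.30e-04), and RefSeq gives the gene Rccd1 a span that overlaps nearly all of it. Racgap1 and Ect2 encode regulators of RhoA at the division plane. Racgap1 rose from 11.1, 20.7 and 29.5 to 135, 105 and 145 CPM, and Ect2 from 10.1, 5.51 and 9.69 to 55.8, 46.2 and 60.6 CPM (log2 2.65 and 2.68). Anln, which encodes anillin, the scaffold of the contractile ring, rose from 16.2, 18.8 and 31.7 to 136, 111 and 135 CPM (log2 2.52). For each of the 4 genes the lowest Asrij high library was at least 3.51 times the highest Asrij low library.

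Mki67 (chromosome 7, 135689784 to 135716450), which encodes the proliferation antigen Ki-67 that coats mitotic chromosomes, had the highest level per length after Hjurp in both groups, with 146, 139 and 290.4 CPM in Asrij low and 1359.5, 1016 and 1652 CPM in Asrij high (log2 difference 2.81 ± 0.33, adjusted p = 4.47e-04). Foxm1, the gene of a transcription factor that drives G2 and mitotic genes, rose from 12.8, 12.1 and 19.96 to 62.4, 72.2 and 59.6 CPM (log2 difference 2.12 ± 0.24, adjusted p = 3.76e-04). Its order within Asrij high differed from most of the other genes, with replicate 2 the highest.

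**Figure D4:**
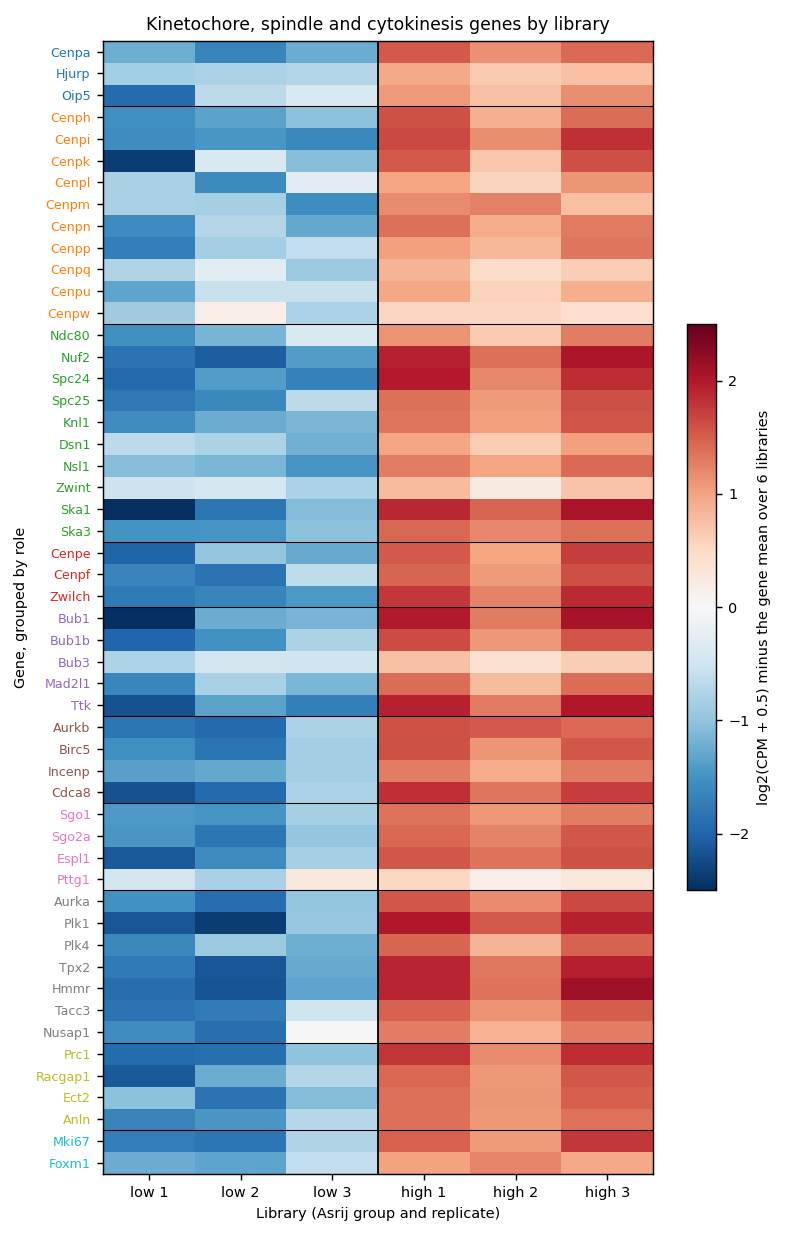
Level of each of the 52 genes (rows, grouped by role) in each library (columns), as log2(CPM + 0.5) minus the mean of the gene over the 6 libraries. The 3 Asrij high columns are above the mean of the gene almost throughout, Asrij high replicate 2 is paler than the other Asrij high libraries, and Asrij low replicate 3 is paler than the other Asrij low libraries for spindle, passenger complex and cytokinesis genes.

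Libraries within a group differed in the same direction for many of the genes. Within Asrij high, replicate 2 was the lowest for 48 of the 52 genes, against 37.2% of all genes tested, and the summed level of the 52 genes was 6909, 5211 and 7180.5 CPM in replicates 1 to 3. That library also had the highest summed level of stem cell markers within Asrij high, as for Procr at 1.54, 6.46 and 4.19 CPM in replicates 1 to 3. Within Asrij low, replicate 3 was the highest for 35 of the 52 genes, against 32.2% of all genes tested, and the sums were 991, 1089 and 1487 CPM. This held for all 4 passenger complex genes, all 4 genes of the shugoshin and separase group, 6 of 7 spindle and pole genes and 3 of 4 cytokinesis genes. It held for 6 of 10 outer kinetochore, 4 of 10 inner kinetochore and 2 of 5 spindle checkpoint genes. Replicate 2 was the highest for 5 of the inner kinetochore and 3 of the checkpoint genes. It was so for 12 of the 52 genes and for 39.9% of all genes tested. Asrij low replicate 3 also had the highest levels of the stromal gene Cxcl12 (145, 74.3 and 493 CPM) and of the globin gene Hba-a1 (7582, 3024 and 23658 CPM) in its group. The part of stromal and red cells in this was not tested. When Asrij low replicate 3 and Asrij high replicate 2 were both dropped, 51 of the 52 genes rose and the median log2 fold change was 3.03. The coefficient of variation between libraries had a median of 33.3% in Asrij low and 17.4% in Asrij high.

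Levels of different genes can be compared only per length. In Asrij low the median of the 52 genes was 3.33 RPKM, at the 38.5th percentile of tested genes with a length, and in Asrij high it was 19.1 RPKM, at the 74.7th percentile. The order of the genes was largely kept (Spearman's rho 0.814 and Pearson's r of log2 RPKM 0.854 across 52 genes, which share libraries and lengths and are not independent). Hjurp was highest in both groups, at 51.7 and 154 RPKM, followed by Mki67 at 19.05 and 133 RPKM. Zwint (18.3 RPKM), Incenp (16.99 RPKM) and Bub3 (15.6 RPKM) came next in Asrij low. Zwint and Bub3 stood below Incenp, Bub1b and Cenpa in Asrij high, where these had 86.2, 81.1 and 70.7 RPKM. Cenpw was lowest in Asrij high at 0.754 RPKM, and in Asrij low at 0.343 RPKM beside Ska1 at 0.413 RPKM. The exon length used for Cenpw (4211 bases) fills most of its span of 4.595 kb, so its ranks depend on that length. In CPM, Cenpw stood above Ska1 in Asrij low (mean 1.45 against 1.10). For Mad2l1 the exon length used (8032 bases) exceeds the RefSeq span of 5.887 kb, so its RPKM is uncertain as well.

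**Figure D5:**
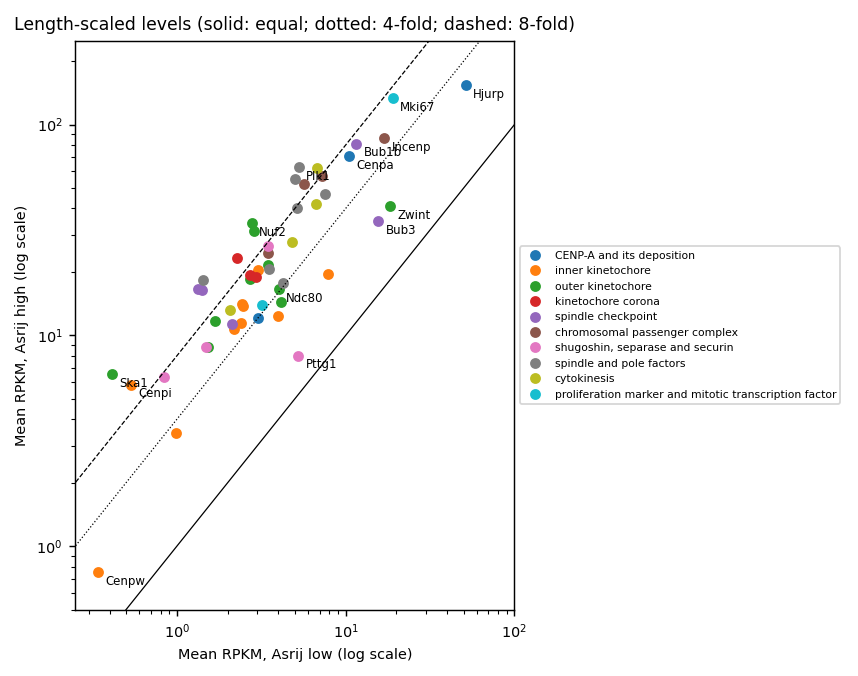
Mean length-scaled level (RPKM, log axes) of each of the 52 genes in Asrij low (x axis) and Asrij high (y axis), coloured by role, with lines for equal levels, a 4-fold and an 8-fold difference. Most points lie between or near the 4-fold and 8-fold lines, and Hjurp, Cenpq, Zwint, Bub3, Cenpw and Pttg1 lie nearest to the line of equal levels.

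Further genes of the same machinery, in lists drawn from textbook knowledge, gave 63 rises and 3 falls among 88 genes, with a median log2 fold change of 1.04. These lists were also chosen with earlier results of these data known, so their counts are a description and not independent support. Over all genes tested, 21.7% were called higher and 17.7% lower. With library totals 51 of the 88 rose and 6 fell, and with upper quartile factors 55 rose and 9 fell. Of 8 other centromere and inner kinetochore genes 7 rose and 1 did not pass the test (median 1.01), among them the network genes Cenpo (1.06) and Cenpc1 (1.01) and the histone-fold genes Cenps (2.03) and Cenpx (1.01). Of 15 other outer kinetochore and checkpoint genes 12 rose and 3 did not pass (median 1.28). Spdl1, a dynein adaptor gene, rose from 4.20, 5.40 and 4.59 to 52.8, 31.7 and 50.8 CPM, and Trip13, an ATPase gene that recycles MAD2, rose by 2.88. Kntc1, which encodes the RZZ subunit ROD, rose by 2.75, and Knstrn by 2.57. Of 36 other spindle, centrosome and centriole genes 29 rose and 7 did not pass (median 1.15). Aspm, a pole focusing factor gene, rose from 18.0, 19.1 and 36.7 to 255, 170.2 and 270.1 CPM, Spag5 by 3.16, Ckap2l by 3.02 and the centriole assembly gene Stil by 2.31.

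Of 16 cytokinesis genes outside the 52, 6 rose and 2 fell (median 0.41), beside the same 21.7% and 17.7% of all genes tested. With library totals or upper quartile factors 4 rose and 4 fell, and with 1 library left out 4 to 8 rose and 2 to 3 fell. Cit, the citron kinase gene, was at 45.2, 53.2 and 74.7 CPM in Asrij low and 322, 251 and 327 CPM in Asrij high (log2 difference 2.38 ± 0.22, adjusted p = 2.21e-04). Myh10, which encodes a nonmuscle myosin heavy chain, was at 29.7, 27.9 and 49.6 CPM in Asrij low and 574, 272 and 516 CPM in Asrij high (log2 difference 3.67 ± 0.34, adjusted p = 2.21e-04). The falls were those of the septin genes Septin6, from 111, 125 and 88.3 to 24.8, 52.6 and 26.3 CPM (log2 difference -1.64 ± 0.30, adjusted p = 0.00265), and Septin9, from 282, 299 and 299 to 110.0, 178 and 116 CPM (log2 difference -1.12 ± 0.21, adjusted p = 0.00285). Septins and myosins also serve the cortex of cells that are not dividing. Of 13 genes for factors that bind mitotic promoters 9 rose and 1 fell (median 1.05). Mybl2, the B-MYB gene that joins MuvB to activate mitotic genes, rose from 19.9, 25.1 and 34.6 to 227, 172 and 236 CPM (log2 difference 2.999 ± 0.24, adjusted p = 1.93e-04), and E2f4, E2f1 and Rbl1 rose by 1.91, 1.38 and 1.26. Rbl2, which encodes p130, the pocket protein of the repressive complex in quiescence, was at 97.8, 91.5 and 73.5 CPM in Asrij low and 56.4, 64.9 and 59.6 CPM in Asrij high (log2 difference -0.54 ± 0.17, adjusted p = 0.0283). This fall did not pass the threshold in 6 of its alternatives, among them each fit without 1 library other than Asrij low replicate 3 or Asrij high replicate 2 (adjusted p 0.0637 to 0.122), and the adjusted p was 0.0528 with a replicate block.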

How the data were processed

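RNA of sorted bone marrow long-term HSCs was profiled in 6 libraries, 3 per group. Per the labels' protocols, ribosomal RNA was depleted and libraries were made with a directional kit, whereas the molecule field names polyA RNA. The authors deposited raw counts, whole numbers for each gene symbol. HISAT2, Subread, SAMtools and FastQC, and the build mm10, are named per the submitters' processing notes. For versions, annotation, strand and multimapping, settings were not given in the sources used here.

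The 52 genes and all lists were chosen with earlier results of these data known. Counts were tested with edgeR 4.0.16 in R 4.3.3 (TMM factors, filterByExpr with minimum count 10 and minimum total 15, robust quasi-likelihood fit, group as the only term), with Benjamini-Hochberg adjustment over 21445 genes. Standard errors were derived from the quasi-likelihood statistic. RPKM uses exon-union lengths of GENCODE, found for 18610 tested genes. Alternatives were other scalings, DESeq2 1.42.0, limma-voom (limma 3.58.1), no filter, thinning to the smallest library, a replicate block and left-out libraries. Named genes are all 52, for each further list up to 4 past the threshold by smallest p and those called against their list, the receptors of the gate and Ociad1. Of the other markers, only the erythroid genes that were called and Cxcl12 are named. Neighbouring genes were named from their positions. The pipeline was tested on simulated data. Libraries of a group differed by far more than sampling noise (chi-square over degrees of freedom 75.3 to 168), so none was counted as a copy.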

Additional observations from a re-analysis of the deposited data

How the results depend on the processing

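Over 14 alternatives, 49 to 51 of the 52 genes rose and 0 fell, where 13.7% to 24.0% of all genes tested were called higher. 49 genes were past the threshold in each alternative, and all 52 had a positive fold change throughout (lowest 0.32, Pttg1). The median log2 fold change ran from 2.39 with upper quartile factors to 3.03 when Asrij low replicate 3 and Asrij high replicate 2 were dropped together, and from 2.503 to 2.89 with 1 library left out. Thinning all libraries to the smallest total gave 50 rises and a median of 2.58. Falls among the 88 further genes numbered 6 with library totals, 9 with upper quartile factors, 5 with DESeq2 and 6 without that pair of libraries. In the 100 bases before the start the CHR was found for 18.2%, CCAAT for 52.3% and the E2F motif for 11.4% of the 44 genes (7.18%, 21.6% and 4.37% of all genes with a promoter), and within 50 bases of the start (a window added after seeing the data) CCAAT for 54.5% and the E2F motif for 13.6% (15.6% and 4.47% of all genes). Whether shared replicate numbers pair the samples cannot be told from deviations within groups of 3 libraries. Same-numbered deviations correlated at 0.02, 0.03 and 0.35, and differently numbered ones at -0.24 to 0.17. A replicate block gave 50 rises, 0 falls and a median of 2.74, with 60 rises and 2 falls among the 88 further genes. With 1 library left out, 55 to 67 of the 88 rose and 2 to 4 fell. Depth limits the least counted of the 52 genes, Ska1 and Cenpw, whose lowest libraries held 22 and 26 counts.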

Other observations

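The E2F motif, known from promoters of genes expressed at the start of S phase and searched on either strand as TTGGCGC, as TTCCCGC, as TTCGCGC and as TTGCCGC, stood in the promoters of 12 of the 44 genes (27.3%, against 10.9% of all genes with a promoter). Genes with it had a median log2 fold change of 2.60 and genes without it one of 2.67. At least 2 CCAAT matches stood in a promoter of 17 of the 44 genes (38.6%, against 13.3%).

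The 6 genes with the smallest fold changes were Pttg1 (0.61), Cenpw (1.14), Bub3 (1.16), Zwint (1.17), Cenpq (1.30) and Hjurp (1.58). Their levels per length in Asrij low were 5.25, 0.343, 15.6, 18.3, 7.90 and 51.7 RPKM, from the lowest of the 52 genes to the highest. The lowest rank, that of Cenpw, depends on the exon length used for it. Bub3, Cenpw and Hjurp hold a CHR and a CCAAT in a listed promoter, and Zwint and Cenpq hold a CCAAT only. Pttg1 holds neither in the stretch searched, which does not reach the 5′ end of its gene span.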
